A study of Homo sapiens with 12 samples.

Results

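The genes of S phase and DNA replication described here were the 43 rows of the deposited gene table, of 34626 in all, whose symbol was on a list of replication factors. The list holds the MCM helicase and its loading factors, the activators of that helicase, the sliding clamp and its loader, the DNA polymerases and primase, the factors that bind single strands and join Okazaki fragments, the enzymes of deoxynucleotide synthesis, the regulators CCNE1, CCNE2 and E2F1, and the chromatin factors UHRF1, CHAF1A and CHAF1B. The rows were taken by symbol, and the list was drawn up with earlier results of these data known. RNA came from 2 human lines of acute myeloid leukaemia, MV4-11 and THP-1, which have monocytic features and both carry a fusion of the KMT2A (MLL) gene. Each line was given a control hairpin (shControl) or a hairpin directed at CYTH4 (shCYTH4). CYTH4 encodes cytohesin 4, an activator of ARF GTPases expressed mostly in blood cells. The 4 groups held 3 libraries each, 12 in all. No source used here gives the hairpin sequence, its promoter, the time after its delivery or whether cells were cloned. Nor is it stated that the libraries of 1 group were grown apart, and p-values accordingly cover the spread between these samples only, which may be technical.

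Replication is prepared in G1, when the origin recognition complex with CDC6 and CDT1 loads the ring of MCM proteins onto DNA. In S phase CDC45 and the GINS complex turn the loaded ring into an active helicase, primase and DNA polymerase alpha start each new strand, replication factor C loads the PCNA clamp, and DNA polymerases delta and epsilon extend the strands. Many of these genes are transcribed at the entry to S phase under E2F transcription factors, and their transcripts mark dividing cells in leukaemia samples. In RNA from a bulk culture, a smaller share of cells in S phase and less RNA per cell cannot be told apart.

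Promoters were taken from RefSeq on GRCh38.p14 as windows from 250 bases before to 50 bases after each annotated start. Of the 43 genes, 37 matched, with 47 windows among them, and MCM4, MCM5, RPA2, RPA3, GINS4 and CCNE2 had none. Stretches of 6 genes are printed here because their genes carry the differences described later. Each is the 180 bases before the annotated start, read 5′ to 3′ on the strand of the gene, and capitals mark the letters TTTCCCGC, TTTGGCGC or TTTCGCGC, or their reverse complements, which are forms of the E2F site.
PCNA: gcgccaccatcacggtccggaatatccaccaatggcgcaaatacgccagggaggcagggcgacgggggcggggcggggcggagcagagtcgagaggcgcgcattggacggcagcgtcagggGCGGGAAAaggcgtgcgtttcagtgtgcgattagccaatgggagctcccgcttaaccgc
E2F1: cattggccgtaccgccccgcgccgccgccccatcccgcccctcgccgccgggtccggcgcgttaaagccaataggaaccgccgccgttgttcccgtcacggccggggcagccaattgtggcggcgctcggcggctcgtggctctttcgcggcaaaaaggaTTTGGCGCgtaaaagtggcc
MCM6: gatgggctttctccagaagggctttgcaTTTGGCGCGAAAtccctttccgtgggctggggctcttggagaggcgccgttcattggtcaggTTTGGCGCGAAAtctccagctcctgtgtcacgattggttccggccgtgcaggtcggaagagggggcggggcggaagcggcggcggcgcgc
MCM3: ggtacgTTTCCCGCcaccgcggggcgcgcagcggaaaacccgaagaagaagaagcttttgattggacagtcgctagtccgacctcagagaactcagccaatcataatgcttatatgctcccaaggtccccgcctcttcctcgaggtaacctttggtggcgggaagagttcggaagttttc
LIG1: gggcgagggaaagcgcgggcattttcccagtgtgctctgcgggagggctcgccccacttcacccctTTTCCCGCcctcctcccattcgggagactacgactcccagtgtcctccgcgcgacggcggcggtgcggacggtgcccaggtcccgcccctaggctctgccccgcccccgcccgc
POLD1: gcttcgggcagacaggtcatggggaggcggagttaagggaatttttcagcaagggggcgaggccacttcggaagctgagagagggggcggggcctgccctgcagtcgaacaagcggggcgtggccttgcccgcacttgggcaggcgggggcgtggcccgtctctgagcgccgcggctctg

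On that build the stretches lie at chr20:5126623-5126802 (PCNA, minus strand), chr20:33686386-33686565 (E2F1, minus strand), chr2:135876444-135876623 (MCM6, minus strand), chr6:52284743-52284922 (MCM3, minus strand), chr19:48170345-48170524 (LIG1, minus strand) and chr19:50384143-50384322 (POLD1, plus strand). PCNA and POLD1 each had 2 windows in the table, and 1 is shown. The MCM6 stretch holds the run TTTGGCGCGAAA at 2 places, in which TTTGGCGC on one strand overlaps TTTCGCGC on the other. The POLD1 stretch holds none of the 3 forms. Searched on both strands over the whole 300-base windows, at least 1 of the 3 forms was present in 20 of the 47 windows of replication genes, or 42.6%, against 2.74% of all 35116 windows. By gene, 19 of 37 held at least 1. The letters GGGCGG, a GC box, were in 78.7% of the windows of replication genes and 44.95% of all windows, and CCAAT was in 61.7% and 34.61%. GGGCGG can overlap GCGGGAAA, the reverse complement of TTTCCCGC, as it does in the PCNA stretch. TTTGAA, the cell cycle homology region found at many mitotic genes, was in 1 of the 47 windows, or 2.1%, against 15.16% of all windows and 12 of 20 windows of a list of mitosis genes. These matches describe letters in a window and not bound sites.

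Depth was 71730093 to 77782719 estimated counts per library. Of the 12 libraries, 2 stood apart from their groups. MV4-11 shCYTH4 replicate 1 correlated with the other libraries of its group at r = 0.9802 and 0.9782 on a log2 scale, against 0.9943 between those, and THP-1 shCYTH4 replicate 3 at 0.9737 and 0.9717, against 0.9933. THP-1 shCYTH4 replicate 3 was closer to a control, THP-1 shControl replicate 1, at 0.9853. It correlated with THP-1 shControl replicates 2 and 3 at 0.9714 and 0.9771. The THP-1 controls correlated with each other at 0.9848 to 0.9878. Results that rest on them are given with and without them. CYTH4 itself fell in THP-1, where it was at 25.7, 32.2 and 21.01 FPKM in the controls and at 15.7, 15.0 and 15.7 FPKM with shCYTH4. The fitted log2 change was -0.89 (SE 0.19, edgeR adjusted p = 0.0338). FPKM counts fragments per length of transcript and per size of library, as deposited. That call was lost without THP-1 shCYTH4 replicate 1 (adjusted p = 0.145) or 2 (0.126), THP-1 shControl replicate 1 (0.0539) or 2 (0.147), or MV4-11 shCYTH4 replicate 2 (0.0541). In MV4-11 it was at 20.9, 16.0 and 18.1 FPKM in the controls and at 15.5, 20.7 and 22.3 FPKM in the libraries labelled shCYTH4 (log2 0.0089, adjusted p = 0.988), so these differ in label and not in measured CYTH4. All 8 monocytic markers were found as rows, with a summed level of 1241 to 2112 FPKM per library. LYZ was the highest of them in MV4-11 and ELANE in THP-1, and LYZ and ELANE made up most of that sum. CD14 was low, at a mean of 0.171 FPKM in the MV4-11 controls and 1.31 FPKM in the THP-1 controls. The highest group mean was 6.35 FPKM for ITGAM and 3.49 FPKM for MPO. CSF1R, FCGR1A and CD33 lay between, with group means from 9.89 to 67.7 FPKM. The summed markers of T cells reached at most 0.163 FPKM in a library, of erythroid cells 0.420, of megakaryocytes 1.79, of B cells 3.69, and of epithelial cells and fibroblasts 4.69; CD2, MS4A1, PF4 and DCN were not analysed here.

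All 43 replication genes passed the filter on low values (3 or more libraries with an FPKM of 1 or above), as did 12350 genes in all. In MV4-11 control cells PCNA, the clamp that holds polymerases on DNA, was the most abundant at 269.7 ± 16.5 FPKM (SD, n = 3), followed by the helicase subunits MCM7 at 171.5 ± 13.8 and MCM2 at 119.3 ± 9.77. In THP-1 control cells the helicase subunit MCM3 led at 191.7 ± 14.0 FPKM, followed by MCM7 at 147.7 ± 9.90 and the thymidine salvage kinase TK1 at 141.0 ± 19.9, whose spreads overlap, and PCNA was in place 6 at 90.2 ± 19.9. The catalytic subunit of polymerase alpha, POLA1, was the least abundant in both lines, at 2.08 ± 0.518 FPKM in MV4-11 and 1.95 ± 0.511 in THP-1.

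**Figure D1:**
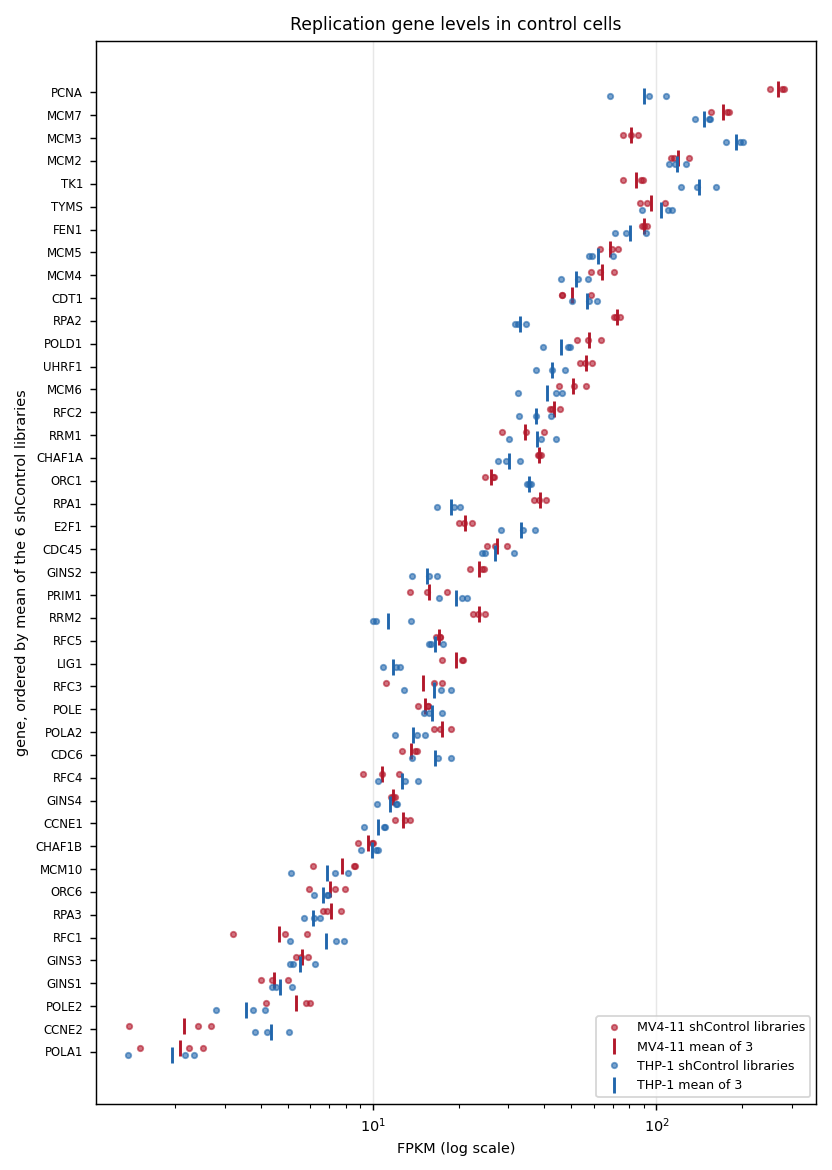
Levels of the 43 replication genes in control cells, in FPKM on a log axis, with 3 libraries (points) and their mean (bars) per line, red for MV4-11 and blue for THP-1. PCNA, RPA1, RPA2 and RRM2 lie to the right in MV4-11, and MCM3, TK1, E2F1 and CCNE2 to the right in THP-1.

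The control cells of the lines differed in single replication genes in both directions. By edgeR's quasi-likelihood test with Benjamini-Hochberg adjustment over all tested genes, 16 of the 43 genes, or 37.2%, differed at an adjusted p under 0.05, against 51.4% of all genes tested. Of these, 11 were higher in MV4-11 (24.6% of all genes were) and 5 were higher in THP-1 (26.7% of all genes). The median log2 difference, MV4-11 minus THP-1, was 0.10 over the 43 genes and -0.0067 over all genes.

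PCNA showed the largest difference toward MV4-11. It was at 251, 277 and 281 FPKM in the MV4-11 controls and at 94.1, 68.7 and 108 FPKM in the THP-1 controls. Every MV4-11 library lay far above every THP-1 library, a fitted 3.04-fold difference (log2 1.604, SE 0.16, adjusted p = 7.2e-07). The single-strand binding protein RPA, which coats unwound DNA, had a higher large and middle subunit in MV4-11. RPA1 was at 36.8, 40.7 and 38.6 FPKM there and at 20.3, 16.8 and 19.2 in THP-1 (log2 1.07, SE 0.13, adjusted p = 3.2e-06). RPA2 was at 74.6, 72.2 and 70.5 FPKM in MV4-11 and at 32.3, 34.7 and 31.7 in THP-1, a log2 difference of 1.16 (SE 0.16, adjusted p = 1.8e-05). The groups did not overlap for either subunit, and the ratio of RPA2 to RPA1 was 1.88 ± 0.133 in MV4-11 and 1.77 ± 0.260 in THP-1, within the spread. RRM2, the small subunit of ribonucleotide reductase, which makes deoxynucleotides, was at 22.5, 23.5 and 24.7 FPKM in MV4-11 and at 13.6, 10.01 and 10.2 in THP-1, a log2 difference of 1.09 (SE 0.13, adjusted p = 3.4e-06). The large subunit RRM1 did not differ by the test (log2 -0.12, adjusted p = 0.530), so the ratio of RRM1 to RRM2 was 1.45 ± 0.177 in MV4-11 and 3.37 ± 0.427 in THP-1.

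MCM3 was the gene furthest toward THP-1. Its levels were 75.9, 86.3 and 81.5 FPKM in the MV4-11 controls and 198, 176 and 201 FPKM in the THP-1 controls, again with no overlap (log2 -1.22, SE 0.18, adjusted p = 2.9e-05). MCM2, another subunit of the same ring, was at 130, 112 and 115 FPKM in MV4-11 and at 110, 127 and 117 in THP-1, and these ranges overlap. The ratio of MCM3 to MCM2 was 0.686 ± 0.0954 in MV4-11 and 1.63 ± 0.222 in THP-1. Of the other ring subunits, MCM4 (log2 0.32, adjusted p = 0.0395) and MCM6 (log2 0.33, adjusted p = 0.0436) were higher in MV4-11, and MCM5 and MCM7 did not pass the test (log2 0.15 and 0.24). Of 22 alternatives, 9 kept the MCM4 call and 10 the MCM6 call, and the MCM6 levels of the lines overlapped. CCNE2, an activator of the kinase CDK2, was at 1.37, 2.68 and 2.40 FPKM in MV4-11 and at 5.02, 3.83 and 4.22 in THP-1 (log2 -1.002, SE 0.21, adjusted p = 0.00094). Its relative CCNE1, at 13.5, 12.9 and 11.9 against 10.9, 9.31 and 11.0 FPKM, pointed the other way without passing the test (log2 0.32, adjusted p = 0.13). TK1 was at 89.9, 88.5 and 76.4 FPKM in MV4-11 and at 122, 162 and 139 in THP-1 (log2 -0.71, SE 0.15, adjusted p = 0.00078). E2F1, the transcription factor of S phase entry, was at 22.4, 20.1 and 20.98 FPKM in MV4-11 and at 28.3, 33.7 and 37.3 in THP-1, a log2 difference of -0.63 (SE 0.17, adjusted p = 0.0050).

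Of the remaining calls between the control cells, 5 were higher in MV4-11 and 1 was lower, besides MCM4 and MCM6. LIG1, the ligase that joins Okazaki fragments, was higher in MV4-11 (log2 0.76, adjusted p = 0.00021), as were the GINS subunit GINS2 (0.63), the polymerase epsilon subunit POLE2 (0.60), UHRF1, which reads hemimethylated DNA behind the fork (0.42), and CHAF1A, a subunit of the histone chaperone CAF-1 (0.38). RFC1, the large subunit of the clamp loader, was lower (-0.53), and its levels in the lines overlapped. Of 22 alternatives, 15 kept the RFC1 call, 18 that of POLE2, 18 that of CHAF1A and 21 that of UHRF1. All 22 kept the calls of LIG1 and GINS2. All 5 members of the single-strand and Okazaki fragment group lay above 0, as did 49.7% of all genes, with a median of 0.76. Of the 5, 3 passed the test, or 60%, against 51.4% of all genes, and the other 2 were RPA3 and the flap nuclease FEN1. The calls on PCNA, RPA1, RPA2, RRM2, MCM3, TK1, E2F1 and CCNE2 were kept whichever single library was left out, and the total count then ran from 11, without MV4-11 shControl replicate 2, to 19, without THP-1 shCYTH4 replicate 3.

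With shCYTH4 in THP-1, most replication genes lay slightly below the control, and 1 of them, POLD1, fell. POLD1 is the catalytic subunit of DNA polymerase delta. On the edgeR scale 37 of the 43 log2 changes were below 0, with a median of -0.22 against -0.0087 for all genes; on FPKM with limma, where the median of all genes moved to 0.08, 29 of 43 were below 0 with a median of -0.10. With a pseudocount of 0.1 in place of 1 in that fit, the median of all genes was 0.10 in place of 0.08. That of the replication genes was -0.10, or -0.20 relative to the median of all genes. The count called was 1 of 43 lower and 0 higher, against 1.65% of all genes called, 1.04% lower. DESeq2 called 2, POLD1 and LIG1, or 4.65% of the list, against 4.96% of all genes. At an unadjusted p under 0.05, 9 genes were lower and none higher, 20.9% of the list against 16.0% of all genes (8.81% lower). Without THP-1 shCYTH4 replicate 3, 32 of 43 were below 0, with a median of -0.13, and 7 had an unadjusted p under 0.05, or 16.3% against 21.9% of all genes. Without THP-1 shControl replicate 3, 33 were below 0 with a median of -0.13, and 6 had such a p, or 14.0% against 12.6%.

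POLD1 was at 39.6, 49.6 and 48.5 FPKM in the THP-1 controls and at 31.1, 30.9 and 28.4 FPKM with shCYTH4. The 3 shCYTH4 libraries lay close together and below every control. The fitted level was 60.5% of control (log2 -0.72, SE 0.15, 95% interval -1.05 to -0.40, adjusted p = 0.0331). POLE, the catalytic subunit of polymerase epsilon, was at 15.1, 17.4 and 15.7 FPKM in the controls and at 17.6, 16.7 and 14.5 with shCYTH4, so the ratio of POLD1 to POLE went from 2.85 ± 0.238 to 1.86 ± 0.0961. The log2 change of POLD1 stayed between -0.84 and -0.59 in 23 alternatives. The call was lost without MV4-11 shCYTH4 replicate 2 (adjusted p = 0.0550), THP-1 shCYTH4 replicate 1 (0.130) or 2 (0.101), or THP-1 shControl replicate 2 (0.133) or 3 (0.108), and in a fit of the 6 THP-1 libraries alone (0.0503). It was kept without THP-1 shCYTH4 replicate 3 (log2 -0.66, adjusted p = 0.0260).

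**Figure D2:**
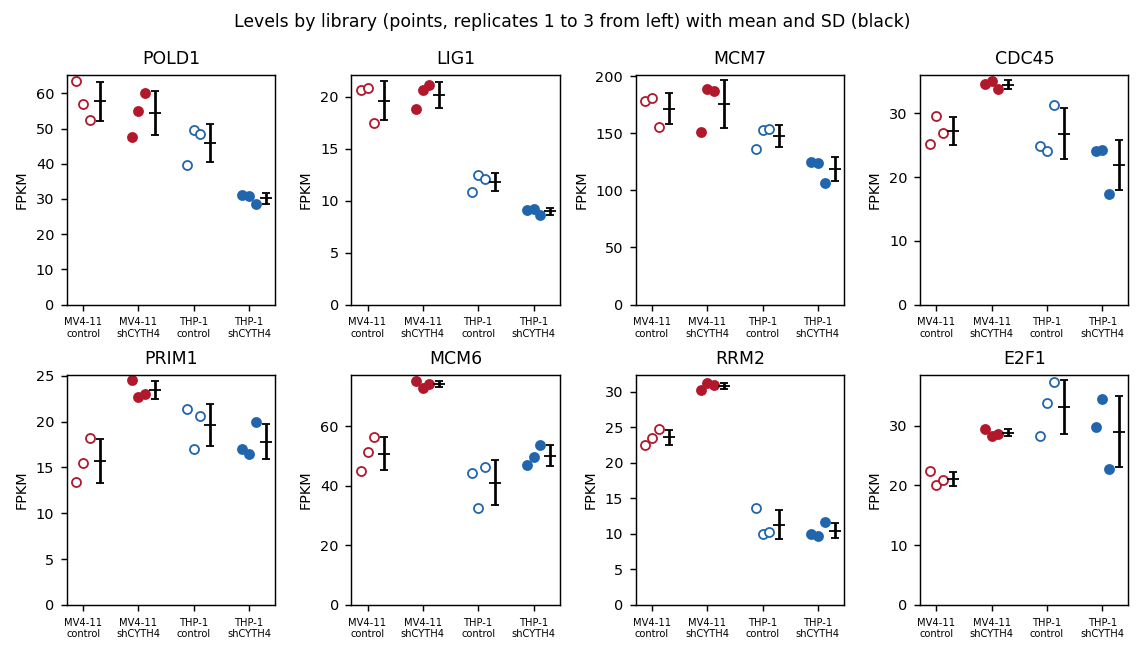
FPKM of 8 replication genes in all 12 libraries, open circles for shControl and filled for shCYTH4, red for MV4-11 and blue for THP-1, with the mean and SD of 3 in black. POLD1, LIG1 and MCM7 lie lower in all 3 THP-1 shCYTH4 libraries than in any THP-1 control, and PRIM1, MCM6, CDC45, RRM2 and E2F1 lie higher in all 3 MV4-11 libraries labelled shCYTH4 than in any MV4-11 control.

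In the THP-1 comparison the next members by p were LIG1, MCM4, MCM7 and UHRF1, and none of these passed the test over all genes. LIG1 was at 10.8, 12.4 and 12.1 FPKM in the controls and at 9.13, 9.15 and 8.605 with shCYTH4 (log2 -0.51, SE 0.13, adjusted p = 0.0712). It passed without MV4-11 shCYTH4 replicate 1 (adjusted p = 0.0448), where 2.97% of all genes did. MCM4 was at 57.1, 46.1 and 52.8 FPKM in the controls and at 44.9, 45.8 and 37.1 with shCYTH4 (log2 -0.40, SE 0.12, adjusted p = 0.120). MCM7 was at 136, 153 and 154 FPKM in the controls and at 125, 124 and 107 with shCYTH4 (log2 -0.43, SE 0.14, adjusted p = 0.136). For LIG1, MCM4 and MCM7 the shCYTH4 libraries lay below every control. UHRF1 was at 47.6, 37.5 and 42.8 FPKM in the controls and at 37.5, 37.9 and 32.8 with shCYTH4, and these ranges meet (log2 -0.35, SE 0.12, adjusted p = 0.169). Including POLD1 and CHAF1A, 5 of 43 genes lay below every control in all 3 shCYTH4 libraries, against 6.63% of all genes, and MCM6 and ORC6, a subunit of the origin recognition complex, lay above, against 17.1% of all genes. Without THP-1 shCYTH4 replicate 3 the counts were 7 lower, against 15.4% of all genes, and 7 higher, against 31.5%.

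By role, all 5 activators of the helicase (CDC45 and GINS1 to GINS4), all 4 deoxynucleotide genes, all 3 G1/S regulators and all 3 chromatin factors had log2 changes below 0 in THP-1. The medians were -0.16, -0.29, -0.25 and -0.35, and no gene of these groups passed the test. The helicase activators had 3 of 5 below 0 without THP-1 shCYTH4 replicate 3, with a median of -0.03, and GINS1 and GINS3 lay above 0. The other groups still lay wholly below 0 without that library, with medians of -0.30, -0.13 and -0.24. Without THP-1 shControl replicate 1 or 3, 4 of the 5 activators were below 0, and their median was -0.26 without THP-1 shControl replicate 1 and -0.09 without replicate 2. CDC45 was at 24.9, 24.1 and 31.4 FPKM in the controls and at 24.0, 24.3 and 17.3 with shCYTH4, where replicate 3 lay far below the rest (log2 -0.40, SE 0.15, adjusted p = 0.207). TK1 (log2 -0.40, adjusted p = 0.182) and GINS2 (log2 -0.37, adjusted p = 0.292) were of like size. The single-strand and Okazaki fragment group was mixed. RPA2 was at 32.3, 34.7 and 31.7 FPKM in the controls and at 46.8, 47.0 and 31.6 with shCYTH4, so that replicates 1 and 2 stood above every control and replicate 3 did not (log2 0.23, adjusted p = 0.467). RPA1 gave 20.3, 16.8 and 19.2 against 23.1, 22.9 and 18.8 FPKM, the same split (log2 0.09). Without THP-1 shCYTH4 replicate 3 the log2 change of RPA2 was 0.42 (adjusted p = 0.0647), and without MV4-11 shCYTH4 replicate 1 as well it passed the test (0.43, adjusted p = 0.0268), one of 3 replication genes or 6.98%, against 11.0% of all genes. The other members nearest to a rise were MCM6 (44.3, 32.4 and 46.4 against 46.9, 49.7 and 53.9 FPKM, log2 0.18), ORC6 (6.90, 6.18 and 6.88 against 9.22, 8.02 and 8.08 FPKM, log2 0.23) and the polymerase alpha subunit POLA2 (11.98, 14.3 and 15.2 against 17.0, 17.2 and 11.3 FPKM, log2 0.02). None of these passed, and POLA2 changed sign without THP-1 shCYTH4 replicate 1 or 2 or THP-1 shControl replicate 1.

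**Figure D3:**
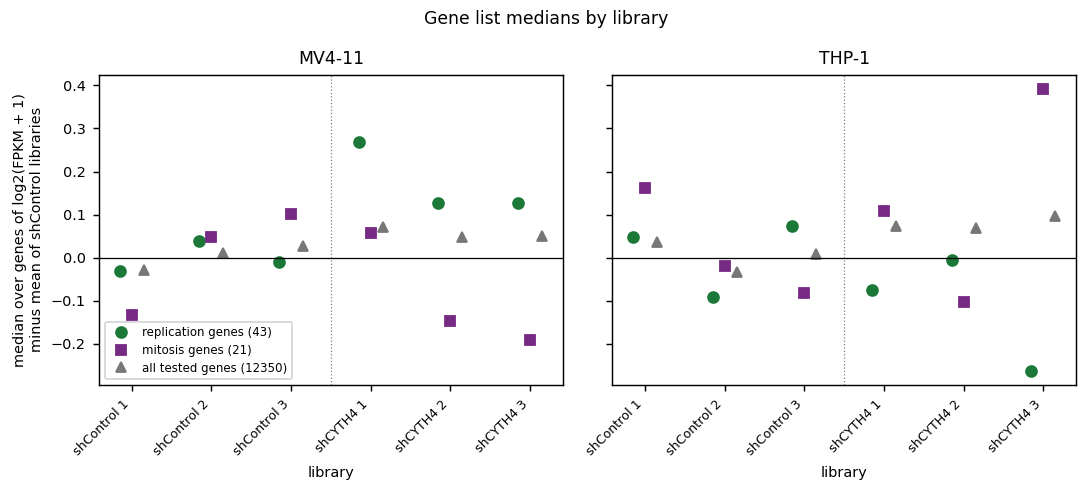
Median over genes of log2(FPKM + 1) minus the mean of the line's 3 shControl libraries, for each library, for 43 replication genes (green circles), 21 mitosis genes (purple squares) and 12350 tested genes (grey triangles). THP-1 shCYTH4 replicate 3 is the lowest for replication genes, at -0.26, and the highest for mitosis genes, at 0.39.

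The spread of the replication genes over the THP-1 libraries was uneven. On log2(FPKM + 1) the median member stood at -0.08, -0.0045 and -0.26 against the control mean in shCYTH4 replicates 1 to 3, while the median of all genes stood at 0.07, 0.07 and 0.10. The 3 controls were at 0.05, -0.09 and 0.07. Replicate 3 thus lay furthest below on this list, and its mitosis genes were the highest, at 0.39 against 0.11 and -0.10 in replicates 1 and 2. MCM2 shows the pattern, at 110, 127 and 117 FPKM in the controls and at 111, 109 and 79.3 with shCYTH4 (log2 -0.36, adjusted p = 0.325). The part of this library in the median change was measured by leaving it out, as given above. Whether the library differs in its cells or in its preparation was not tested.

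In MV4-11 the libraries labelled shCYTH4 had no replication gene that passed the test, and their changes were small, with more above 0 than below. By edgeR 0 of 43 genes were called, against 1.13% of all genes, and 6 had an unadjusted p under 0.05, or 14.0% against 13.9% of all genes; all 6 were higher, as were 7.29% of all genes. DESeq2 called 2 genes, PRIM1 and MCM6, or 4.65%, against 3.65% of all genes, and limma on FPKM called 0, against 1.46%. The log2 changes ran from -0.18 to 0.50, with a median of 0.08, against 0.00075 for all genes. Of the 43, 26 were above 0, or 60.5%, against 50.1% of all genes, and 17 were below. On FPKM, where all genes had a median of 0.05, 33 of 43 were above 0. On log2(FPKM + 1), 7260 to 7401 of the 12350 tested genes lay above the control mean in each of these libraries. Without MV4-11 shCYTH4 replicate 1, 31 were above 0 with a median of 0.06, and 3 had an unadjusted p under 0.05, or 6.98% against 11.8% of all genes. The median was 0.15 without MV4-11 shCYTH4 replicate 3 and 0.05 without MV4-11 shControl replicate 1. In FPKM 15 genes lay above every control in all 3 libraries, or 34.9%, against 16.0% of all genes, and RPA1 alone lay below, against 8.84%. These 15 were MCM3, MCM6, CDC6, CDT1, CDC45, RFC2, RFC3, RFC4, RFC5, POLA1, PRIM1, RRM2, TK1, E2F1 and CHAF1B.

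PRIM1, the catalytic subunit of primase, which lays down the RNA primers, had the smallest p. It was at 13.4, 15.5 and 18.2 FPKM in the MV4-11 controls and at 24.5, 22.7 and 23.0 in the libraries labelled shCYTH4. All 3 of the latter lay above the controls (log2 0.50, SE 0.13, 95% interval 0.22 to 0.79, adjusted p = 0.0831). MCM6 was at 45.1, 51.2 and 56.3 FPKM in the controls and at 75.1, 73.0 and 74.3 in the others, with a wide gap between the groups (log2 0.47, SE 0.13, 95% interval 0.19 to 0.75, adjusted p = 0.0982). Both passed without THP-1 shCYTH4 replicate 3 (adjusted p = 0.0353 and 0.0487), 4.65% of the list, against 3.22% of all genes. PRIM1 overlaps NACA on the same strand in the file's coordinates, and its level is uncertain for that reason.

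The clamp loader group pointed one way. RFC4 was at 9.17, 12.3 and 10.8 FPKM in the MV4-11 controls and at 20.5, 13.1 and 12.8 in the libraries labelled shCYTH4, with replicate 1 far above the rest (log2 0.45, SE 0.18, adjusted p = 0.284, and 0.20 without that library). RFC3 was at 11.1, 16.4 and 17.5 FPKM in the controls and at 23.3, 19.0 and 19.0 in the others (log2 0.37, SE 0.16, adjusted p = 0.324). All 6 genes of the clamp and its loader had log2 changes above 0, with a median of 0.20, and none passed the test; 5 of 6 were above 0 without MV4-11 shCYTH4 replicate 1 or MV4-11 shControl replicate 1. PCNA was at 251, 277 and 281 FPKM in the controls and at 371, 282 and 261 in the others, so that replicate 1 alone stood out (log2 0.10, adjusted p = 0.825).

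RRM2 was at 22.5, 23.5 and 24.7 FPKM in the MV4-11 controls and at 30.3, 31.2 and 31.0 in the libraries labelled shCYTH4, tight in both groups and without overlap (log2 0.31, SE 0.13, adjusted p = 0.287). E2F1 was at 22.4, 20.1 and 20.98 FPKM in the controls and at 29.4, 28.3 and 28.7 in the others, also without overlap (log2 0.37, SE 0.17, adjusted p = 0.335). CCNE1 was at 13.5, 12.9 and 11.9 FPKM and at 17.3, 15.2 and 13.3, and these ranges overlap (log2 0.18). UHRF1 was at 53.7, 59.2 and 55.7 FPKM and at 53.7, 59.9 and 60.7 (log2 -0.03). At the other end, RPA1 was at 36.8, 40.7 and 38.6 FPKM in the controls and at 36.4, 36.7 and 34.7 in the others (log2 -0.18, adjusted p = 0.532). POLE went from 15.6, 15.6 and 14.4 FPKM to 9.58, 15.4 and 17.4 (log2 -0.18), a difference carried by replicate 1, without which it was 0.04. The other members lowest by p were POLD1 (63.6, 57.1 and 52.5 against 47.7, 55.1 and 60.2 FPKM, log2 -0.17), RPA2 (74.6, 72.2 and 70.5 against 73.7, 69.6 and 61.4 FPKM, log2 -0.16) and MCM4 (58.7, 63.0 and 70.6 against 59.7, 63.8 and 64.2 FPKM, log2 -0.11).

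**Figure D4:**
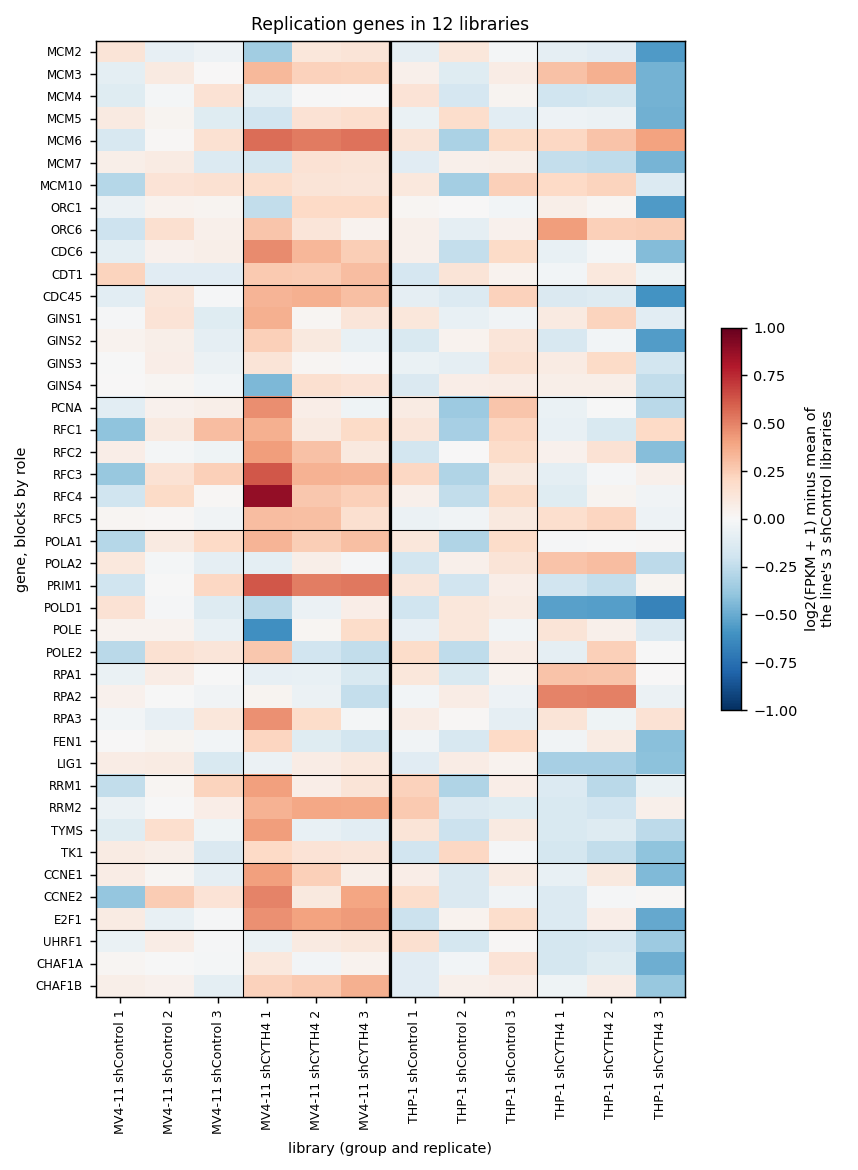
Each of the 43 replication genes (rows, in blocks by role) in each of the 12 libraries (columns), as log2(FPKM + 1) minus the mean of the line's 3 shControl libraries, red above and blue below. Red prevails in the MV4-11 columns labelled shCYTH4, and THP-1 shCYTH4 replicate 3 is the column with most blue, with 33 of 43 genes below 0.

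The responses of the lines were compared gene by gene as the MV4-11 change minus the THP-1 change. Of the 43 differences, 37 were above 0 and 6 below, with a median of 0.31 against 0.02 for all genes. The test called 0 of 43 by edgeR, against 0.866% of all genes, and DESeq2 called 1, PRIM1, or 2.33%, against 3.56% of all genes. At an unadjusted p under 0.05 there were 10 genes, or 23.3%, against 14.2% of all genes, and all 10 were above 0, as were 7.62% of all genes. Leaving out THP-1 shCYTH4 replicate 3 gave 32 above 0 with a median of 0.25, and 11 genes at an unadjusted p under 0.05 or 25.6%, where all genes gave 23.3%; leaving out both libraries that stood apart gave 33 and 0.21, and 10 genes or 23.3%, where all genes gave 25.2%. The lines were measured each against its own controls, and the sign of a gene's difference does not say in which line it moved.

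PRIM1 had the smallest p of the differences. Its change was 0.50 in MV4-11 and -0.25 in THP-1, where it was at 21.4, 17.0 and 20.6 FPKM in the controls and at 17.0, 16.4 and 19.996 with shCYTH4 (difference 0.75, SE 0.19, 95% interval 0.35 to 1.16, adjusted p = 0.0761). CDC45, at 25.2, 29.6 and 27.0 FPKM in the MV4-11 controls and at 34.6, 35.1 and 33.8 in the libraries labelled shCYTH4, gave 0.27 in MV4-11 and -0.40 in THP-1 (difference 0.67, SE 0.22, adjusted p = 0.168). RRM2, whose THP-1 levels were 13.6, 10.01 and 10.2 FPKM in the controls and 9.97, 9.64 and 11.6 with shCYTH4, gave 0.31 and -0.22 (difference 0.54, SE 0.18, adjusted p = 0.179). E2F1, at 29.8, 34.5 and 22.7 FPKM with shCYTH4 in THP-1, gave 0.37 and -0.30 (difference 0.67, SE 0.23, adjusted p = 0.194). CDC6, which loads the helicase with CDT1, followed (difference 0.59, adjusted p = 0.198). Without THP-1 shCYTH4 replicate 3, PRIM1 (0.83, adjusted p = 0.0155) and RRM2 (0.61, adjusted p = 0.0496) passed the test, 4.65% of the list against 7.39% of all genes, while CDC45 (0.52, adjusted p = 0.102) and E2F1 (0.52, adjusted p = 0.136) did not. With all libraries kept, no replication gene lay above every control in one line and below every control in the other. Without THP-1 shCYTH4 replicate 3, PRIM1 and RRM2 lay above every MV4-11 control and below every THP-1 control, and RPA1 did the reverse. The THP-1 margins were thin: RRM2 was at 9.97 against a lowest control of 10.01 FPKM, and PRIM1 at 17.0 against 17.0 as rounded. In THP-1, 15.4% of all genes then lay below every control and 31.5% above. Without MV4-11 shCYTH4 replicate 1 as well, MCM7 joined PRIM1 and RRM2, and RPA2 joined RPA1. In MV4-11, 25.4% of all genes then lay above every control and 14.7% below. The share of all genes that lay in opposite directions in the lines is not given here, so these genes are listed without a background.

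**Figure D5:**
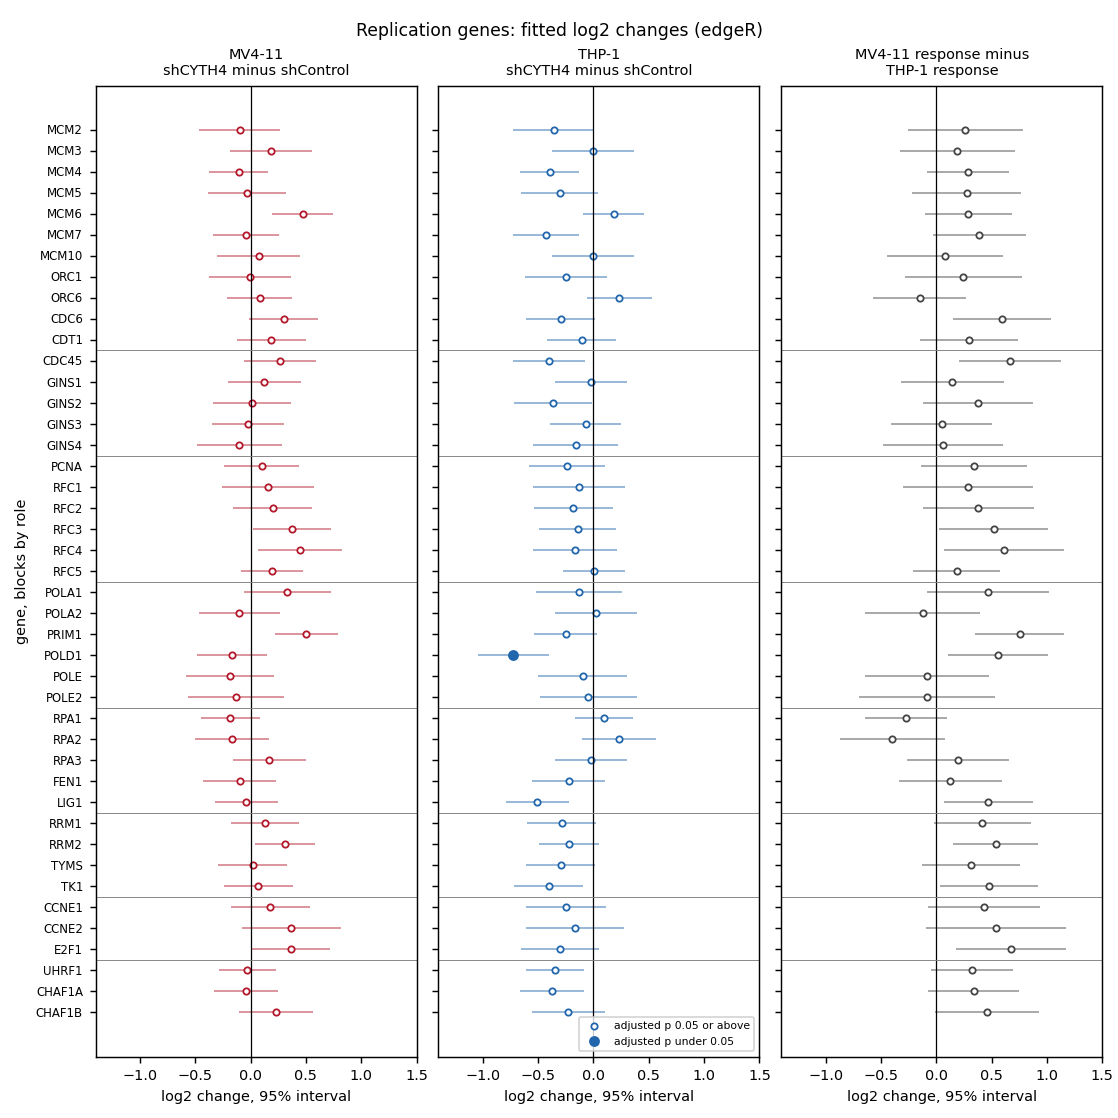
Fitted log2 changes (edgeR) of the 43 replication genes with 95% intervals, for shCYTH4 minus shControl in MV4-11 (red), in THP-1 (blue) and for the MV4-11 response minus the THP-1 response (grey). POLD1 in THP-1 is the filled point, at -0.72, and the points of the third panel lie mostly to the right of 0.

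All 3 G1/S regulators had differences above 0 (median 0.54), as did all 4 deoxynucleotide genes (0.44), all 6 of the clamp and its loader (0.36), all 3 chromatin factors (0.34) and all 5 helicase activators (0.15). The helicase activators had 3 of 5 above 0 without THP-1 shCYTH4 replicate 3 (median 0.04), and each of 5 other libraries left out singly put 1 of the 5 below 0. The other groups named lay wholly above 0 whichever library was left out. Of the 11 genes of the MCM helicase and its loading, 10 were above 0 (median 0.27), the exception being ORC6, and 8 were above 0 without THP-1 shCYTH4 replicate 3 (median 0.14). The polymerases and primase were divided, with 3 of 6 above 0, and so was the single-strand and Okazaki fragment group, with 3 of 5. RPA2 was the member furthest below 0 (-0.40), and without both libraries that stood apart its difference passed the test together with those of PRIM1 and RRM2, 6.98% of the list against 9.94% of all genes.

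Genes with and without E2F letters in the promoter window had overlapping changes. In THP-1 the 19 genes with such letters had a median log2 change of -0.14 (-0.51 to 0.18) and the 18 without them -0.23 (-0.72 to 0.23). In MV4-11 the medians were 0.02 and 0.14, and for the difference between the lines 0.31 and 0.40. Among the genes printed above, MCM3, MCM6 and E2F1 carry the letters and were above every control in MV4-11. So were PRIM1, RRM2 and RFC4, whose windows lack them. PCNA and MCM3, which carry the letters, differed most between the control cells, in opposite directions. POLD1 fell in THP-1 and its printed stretch holds none of the 3 forms; LIG1 holds 1.

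Outside the list, 112 further genes of origin firing, the replisome, nucleotide supply, E2F and RB factors, G1/S cyclins and inhibitors, the replication checkpoint and chromatin copying were followed, of which 107 passed the filter. In THP-1, 2 of these passed the test, or 1.87%, against 1.65% of all genes. The count was 5 without THP-1 shCYTH4 replicate 3, or 4.67% against 6.76%, and without both libraries that stood apart 9, or 8.41% against 11.0%. CHTF18, a subunit of an alternative clamp loader, fell from 7.89, 9.26 and 10.6 FPKM to 6.43, 5.35 and 5.78 (log2 -0.77, SE 0.15, adjusted p = 0.0260). CDKN1A, the cyclin-dependent kinase inhibitor p21, rose from 15.8, 18.9 and 9.90 FPKM to 30.4, 30.7 and 25.9 (log2 0.85, SE 0.20, adjusted p = 0.0474). Both sets of libraries were without overlap. The CHTF18 call was lost without THP-1 shCYTH4 replicate 1 (adjusted p = 0.0837) or 2 (0.125) or THP-1 shControl replicate 2 (0.0964) or 3 (0.108), and in the fit of THP-1 libraries alone (0.0568). With single libraries left out, that of CDKN1A was kept only without THP-1 shControl replicate 2, THP-1 shCYTH4 replicate 3 or MV4-11 shCYTH4 replicate 1, and reached an adjusted p of 0.196 without THP-1 shCYTH4 replicate 1; it was lost too in the fit of THP-1 libraries alone (0.0790) and with edgeR's own filter on low counts (0.0556). In MV4-11 CDKN1A was at 48.0, 54.2 and 42.9 FPKM in the controls and at 39.0, 43.7 and 43.3 in the others (log2 -0.28, adjusted p = 0.547), and the difference between the lines did not pass (-1.13, adjusted p = 0.0759). The test by edgeR called 0 of the 107 in MV4-11, with 11 at an unadjusted p under 0.05, or 10.3% against 13.9% of all genes. In the difference between the lines it called 0, with 14 at that p, or 13.1% against 14.2%. It called 8 there without THP-1 shCYTH4 replicate 3, or 7.48% against 7.39% of all genes. Between the control cells 53 were called, or 49.5% against 51.4% of all genes, 28 higher in MV4-11 and 25 lower.

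The genes of mitosis, 21 tested, had their own pattern in MV4-11. Their median log2 change was -0.18 in the libraries labelled shCYTH4, with 17 of 21 below 0, and -0.30, with 20 of 21 below 0, without MV4-11 shCYTH4 replicate 1; it was -0.11 without MV4-11 shCYTH4 replicate 3. CDC20, the activator of the anaphase-promoting complex, fell from 98.9, 101 and 87.9 FPKM to 52.0, 62.7 and 66.2 (log2 -0.75, SE 0.17, adjusted p = 0.0417). It was the only mitosis gene called, or 4.8%, against 1.13% of all genes. The CDC20 call was lost without any 1 of the 6 MV4-11 libraries, THP-1 shCYTH4 replicate 1 or 2 or THP-1 shControl replicate 1, with adjusted p-values from 0.0508 to 0.145, and also with edgeR's own filter on low counts (0.0577) or none (0.0551). In THP-1 the mitosis median was 0.04, with 14 of 21 above 0; it was 0.16 without THP-1 shCYTH4 replicate 2 and -0.11, with 15 of 21 below 0, without THP-1 shCYTH4 replicate 3. Between the lines' responses the mitosis median was -0.29, and the replication median 0.31; no mitosis gene passed that test. Without THP-1 shCYTH4 replicate 3 the mitosis median was -0.17, with 12 of 21 below 0. CDC20 then passed, as did 913 of all 12350 genes tested. Without both libraries that stood apart CENPA and CDC20 passed, where 1228 of the 12350 did. CDC20 passed as well without THP-1 shControl replicate 2, where 40 of the 12350 did.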

How the data were processed

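Per the labels' protocols, libraries were built from poly(A) RNA with a dUTP-marked strand and sequenced as read pairs of 150 bases. Per the file headers, the table holds an estimated count and an FPKM for each gene and library, as the authors deposited them, in 24 columns of which 0 were not used. The counts are whole numbers, and 31.2% of those from 1 to 40 were multiples of 4, so a count is no single fragment. FPKM, fragments scaled to transcript length and library size, is as deposited, and its denominator is not given. The submitters' processing notes name fastp, StringTie and edgeR, with no version or role. The aligner, the build and use of the strand in counting were found in no source. Headers shorten the groups to SC and Sh, read here as shControl and shCYTH4.

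Counts of genes with an FPKM of 1 or more in at least 3 libraries were fitted with edgeR 4.0.16 in R 4.3.3 (TMM factors 0.916 to 1.08, robust quasi-likelihood, 4 group means, 8 residual degrees of freedom, 12350 genes). Contrasts were shCYTH4 against shControl per line, the difference of these, and MV4-11 against THP-1 in shControl. P-values were adjusted by Benjamini-Hochberg over all tested genes, a gene was called under 0.05, and group values are mean ± SD. Fold changes are on the TMM scale; FPKM is listed without it. Intervals are at 95% and cover the spread between libraries only. With 3 libraries against 3, an exact permutation test cannot go below 0.1 and was not used. The fit was run on simulated counts with a mean per gene shared by all groups, apart from genes changed on purpose in THP-1 shCYTH4. That run held no libraries that stand apart and no difference between the lines, so it does not bear on calls that rest on these. The members, the further lists, the tests and the rule for named genes were chosen with earlier results of these data known. That rule gives library values for members called in a response to shCYTH4 or in the difference, the 5 members of smallest p per line and direction, the 4 largest called differences per direction between controls, and MCM2, PCNA, RRM2, CCNE1, E2F1 and UHRF1, and names called genes of the further lists. Genes past this, such as CDC45, PRIM1 in THP-1 and POLE in THP-1, were chosen after their values were seen. Alternatives were DESeq2 1.42.0, limma 3.58.1 on FPKM or quantile-normalised counts, RLE scaling, other filters, counts divided by 4, a replicate block, own-line fits and leaving out libraries. Leaving out both libraries that stand apart was chosen after seeing the data.

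Without the strand, reads of overlapping genes cannot be told apart. In the file's coordinates the members lying over another gene of mean FPKM 1 or more are MCM7, PRIM1, FEN1 and CHAF1B on the same strand, and GINS2, RFC4, POLA1, RPA1, RPA3, TYMS and CCNE2 on the other, and MCM7 on both. Rows of their pseudogenes reached at most a mean of 0.028 FPKM.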

Additional observations from a re-analysis of the deposited data

How the results depend on the processing

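Over 816 values of named genes under alternatives, 753 kept direction and side of the threshold, 13 newly passed it, 45 no longer passed and 5 reversed. The reversals were POLA2 in THP-1 (0.02), at -0.06 without THP-1 shCYTH4 replicate 1, -0.0785 without replicate 2 and -0.0950 without THP-1 shControl replicate 1, with a range of -0.0950 to 0.216 over single libraries, and POLE in MV4-11 (-0.18), at 0.0410 without MV4-11 shCYTH4 replicate 1 and 0.0421 without both libraries that stood apart, with a range of -0.351 to 0.0410. The count of replication genes called in MV4-11 went from 0 to 2 with DESeq2 and 2 at an adjusted p under 0.1, and ran from 0 to 2 with single libraries left out. In THP-1 it went from 1 to 2 with DESeq2, 2 at an adjusted p under 0.1, 0 at 0.01, 0 with the line's own libraries, 0 to 2 with single libraries left out and 3 without both libraries that stood apart. For the difference between the lines it went from 0 to 1 with DESeq2, 1 at an adjusted p under 0.1, 0 to 2 with single libraries left out and 3 without both. Between the control cells it ran from 11 to 19 with single libraries left out.

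Replicate numbers did not pair the libraries: same-numbered libraries of MV4-11 correlated at -0.272 to -0.153 in their deviations and those of THP-1 at -0.331 to 0.191. Control and shCYTH4 libraries of unlike number correlated at -0.175 to 0.251 in MV4-11 and at -0.344 to 0.427 in THP-1. The highest value was that of THP-1 shControl replicate 1 with THP-1 shCYTH4 replicate 3. With a replicate block within each line (4 residual degrees of freedom) the count was 0 in MV4-11, 0 in THP-1, 0 for the difference and 8 between the control cells.

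Calls over all genes were 139, 204, 107 and 6347 in the 4 contrasts, and 451, 612, 440 and 6519 with DESeq2, 94, 23, 47 and 4071 with the block, and 439, 1362, 1228 and 7241 without both libraries that stood apart. The cause of these shifts was not tested. A fitted log2 change of a replication gene had a standard error of 0.12 to 0.21 within a line, so differences of that size lay within the error of 3 libraries a group.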
